A study of Homo sapiens with 3 samples.

Results

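The regions described here are 1938 stretches of the human genome, among 21208 in all, that lay deep inside protein-coding genes and held an anti-IRF3 peak in each of 3 libraries. They were chosen by merging the peaks of the 3 lists where these overlapped or touched. A merged region was kept if it lay on chromosomes 1 to 22 or X, held a peak of every list, was under 1000 bp wide, and had its midpoint inside a protein-coding RefSeq gene and more than 10 kb from every end of every such gene. Of the merged regions, 14404 held a peak in all 3 lists, 14367 of these lay on the chromosomes used, 13459 were also narrow enough, 6528 of those lay inside a gene, and 1938 were deep inside one. Below, a gene end is an end of a protein-coding gene unless a noncoding gene is named. Because the members were selected on measured peaks, their presence in all 3 lists is a consequence of the choice and not a result. The peak scores given below come from the same peaks and are descriptions without a test.

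The libraries come from chromatin immunoprecipitation and sequencing (ChIP-seq) with an anti-IRF3 antibody in BT549, a basal-like breast cancer cell line. All groups were infected with lentivirus made from lentiCRISPR v2 for stable expression of Cas9 with a guide RNA, and all received polyI:C, a double-stranded RNA made to mimic a virus, by transfection; no further stimulation is recorded in the labels. The groups were control gRNA, Smad3 gRNA #1 and Smad3 gRNA #2, with 1 library each, and the design text states that the Smad3 gene was inactivated. The sample titles give the cells of both Smad3 guides as BT549-caSmad3 and those of the control as BT549, while the descriptions give BT549 for all 3, so guide and parent line cannot be told apart. With 1 library per group there is no replicate check, and no test between groups was made.

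IRF3 is a transcription factor that enters the nucleus after viral nucleic acid is sensed and switches on interferon and antiviral genes at short sites in DNA. Sites inside genes are of 2 well-known kinds: enhancers in introns, which can act on the host gene or on another gene, and internal promoters, at which a shorter transcript of the host gene or a transcript of another gene begins. Promoters of broadly active genes often lie in CpG islands, stretches rich in G, C and the dinucleotide CG, which is rare elsewhere in the genome.

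The 3 lists held 18028, 16811 and 19609 peaks for control gRNA, Smad3 gRNA #1 and Smad3 gRNA #2. Read depth is unknown, since the lists give no counts. The score the authors deposited with each peak has no stated scale, so a score is given as a percentile, the share of peaks in the same list with a lower score. Percentiles of the 3 lists are set side by side and are no measure of change. As a check of the cell label, the basal or mesenchymal genes VIM, CD44, AXL, CAV1, ZEB1 and FN1 had a peak within 10 kb of a gene end in every list and CDH2 had none in any. Of 8 luminal genes 3 had one in every list (GATA3, XBP1, CDH1), and the lymphocyte genes PTPRC, CD3E and MS4A1 had none in any; a peak near a gene does not measure its expression. A peak from a bulk culture cannot tell a site bound in few cells from one bound weakly in many.

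The working name of this set, candidate intronic enhancers, did not hold for all of it. Among the 1791 members that could be set against RefSeq's table of transcript starts, 331 (18.5%) lay within 1 kb of an annotated start, and these included 18 of the 28 members at or above the 90th percentile in every list. Exons and introns were not told apart, because each gene was taken as 1 span. The regions are therefore called deep regions below, and for some of the named ones the distance to the nearest annotated start is given. A region named without a distance may also lie at a start.

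The DNA just before 5 such internal starts shows the base composition at some of the strongest members. Each line gives the 250 bases before the start, 5′ to 3′ in the direction of transcription, from the RefSeq start table of GRCh38.p14, with CG dinucleotides in capitals. The stretches are chr10:6202682-6202931 on the plus strand for PFKFB3, chr1:46132630-46132879 on the minus strand for PIK3R3, chr6:110874535-110874784 on the plus strand for AMD1, chr9:36258449-36258698 on the minus strand for GNE and chr5:179820655-179820904 on the plus strand for SQSTM1. They hold 26, 19, 21, 27 and 29 CG dinucleotides, in that order, and each overlaps a deep region.
PFKFB3: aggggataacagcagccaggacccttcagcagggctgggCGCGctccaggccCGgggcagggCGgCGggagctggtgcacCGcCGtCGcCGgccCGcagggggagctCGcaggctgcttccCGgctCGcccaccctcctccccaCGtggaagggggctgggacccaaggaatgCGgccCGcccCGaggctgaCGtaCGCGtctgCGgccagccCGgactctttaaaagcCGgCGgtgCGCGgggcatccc
PIK3R3: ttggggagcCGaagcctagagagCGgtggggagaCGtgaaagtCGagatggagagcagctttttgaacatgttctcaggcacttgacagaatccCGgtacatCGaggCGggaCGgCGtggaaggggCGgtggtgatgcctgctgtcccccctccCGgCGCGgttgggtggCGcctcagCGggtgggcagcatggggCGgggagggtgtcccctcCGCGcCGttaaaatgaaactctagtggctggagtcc
AMD1: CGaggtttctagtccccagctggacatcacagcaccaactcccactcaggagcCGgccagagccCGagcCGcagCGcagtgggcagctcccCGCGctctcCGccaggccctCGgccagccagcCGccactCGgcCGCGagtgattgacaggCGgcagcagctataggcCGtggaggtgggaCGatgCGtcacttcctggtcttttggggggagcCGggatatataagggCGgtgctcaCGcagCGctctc
GNE: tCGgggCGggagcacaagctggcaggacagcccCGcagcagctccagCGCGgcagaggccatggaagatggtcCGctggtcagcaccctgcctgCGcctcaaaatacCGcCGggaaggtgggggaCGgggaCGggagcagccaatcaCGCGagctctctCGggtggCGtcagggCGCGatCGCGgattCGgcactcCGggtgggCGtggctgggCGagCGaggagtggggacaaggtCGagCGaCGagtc
SQSTM1: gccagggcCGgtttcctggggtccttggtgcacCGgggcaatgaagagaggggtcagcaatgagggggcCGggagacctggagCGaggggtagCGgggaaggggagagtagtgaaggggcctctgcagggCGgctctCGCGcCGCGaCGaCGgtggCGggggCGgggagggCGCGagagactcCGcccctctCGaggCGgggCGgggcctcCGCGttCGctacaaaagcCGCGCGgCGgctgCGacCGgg

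For contrast, these are the 250 bases before 2 internal starts that lay in host genes but in no region of any list, one of FRMD4A (chr10:14008551-14008800, minus strand) and one of EGFR (chr7:55109589-55109838, plus strand). They hold 5 and 1 CG dinucleotides. Their G and C content was 42.0% and 38.8%, against 63.6% to 74.4% in the 5 stretches above. Another such start of FRMD4A, whose bases are not printed, had 48.4%. The 4209 windows around interior starts that overlapped no region had a median of 48.3%, so the 2 printed stretches lie below the middle of these.
FRMD4A: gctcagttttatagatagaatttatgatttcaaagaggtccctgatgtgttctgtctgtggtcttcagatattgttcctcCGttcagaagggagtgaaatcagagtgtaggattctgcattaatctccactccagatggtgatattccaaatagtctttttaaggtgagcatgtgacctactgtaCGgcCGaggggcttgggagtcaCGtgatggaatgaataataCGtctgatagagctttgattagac
EGFR: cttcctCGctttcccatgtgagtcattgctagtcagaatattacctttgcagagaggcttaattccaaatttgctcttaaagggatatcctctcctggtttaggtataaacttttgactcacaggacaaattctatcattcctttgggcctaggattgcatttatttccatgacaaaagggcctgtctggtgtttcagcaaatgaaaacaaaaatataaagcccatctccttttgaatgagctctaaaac

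Many of the members with the highest percentiles in all lists lay at internal starts of their hosts. The region at PFKFB3, an enzyme that sets the rate of glycolysis, ranked at the 99.0, 99.3 and 99.1 percentiles in control gRNA, Smad3 gRNA #1 and Smad3 gRNA #2. Its midpoint lay 90 bp from a start of PFKFB3 and within 1 kb of a start of the antisense gene PFKFB3-AS1. The region at PIK3R3, a regulatory subunit of a phosphoinositide kinase, ranked at 99.1, 98.8 and 99.2 and lay 53 bp from a start. All 3 lists therefore placed both regions among their highest-scoring peaks. AMD1, which makes the precursor for polyamines, had a region at 97.8, 98.8 and 99.1, and GNE, an enzyme of sialic acid synthesis, one at 97.3, 98.8 and 98.8. The region at SQSTM1, the autophagy receptor p62, ranked at 97.3, 97.4 and 97.8 and lay 214 bp from a start. Further host starts within the highest 10% of every list included those of NDEL1, a dynein regulator (94.7, 95.9 and 96.7), DNAJB4, a heat shock cochaperone (94.1, 95.3 and 95.9), ACLY, which makes cytosolic acetyl-CoA (93.7, 95.3 and 97.6), and SLC39A10, a zinc importer (96.7, 92.2 and 93.4). Regions at ZNG1F (98.8, 98.8 and 98.5) and ZNG1E (97.9, 98.7 and 97.5) also lay at host starts, but these genes are near-identical copies of each other, so how reads were divided between them is uncertain.

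Of the 1791 members, 298 (16.6%, 95% Wilson interval 15.0 to 18.4) lay within 1 kb of a start of their own host, 33 (1.84%) near a start of another gene only, and 1460 (81.5%) near no start of the table. Over evenly spaced positions in the interiors of all genes, the share within 1 kb of a start was 0.917%. Intervals of shares are Wilson's at 95% throughout and reflect counting alone, and regions in 1 gene are not independent. The share at a start was higher in members of higher rank: it was 8.23% (5.72 to 11.7) where the lowest of the 3 percentiles was under 10, 29.5% (24.9 to 34.6) from 50 to 75 and 64.3% (45.8 to 79.3) at 90 or more. The median percentiles of the 298 regions at host starts were 61.7, 56.2 and 60.4, and those of the 1460 regions with no start within 1 kb were 33.1, 38.7 and 49.4. Where a region lay within 1 kb of a start, the median distance was 86.0 bp; elsewhere it was 40.9 kb.

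Seen from the starts, most internal promoters carried no deep region. Of 2657 annotated starts of protein-coding genes that lay in these gene interiors, 314 (11.8%, 10.6 to 13.1) had a window overlapping a member, and of 2104 starts of long noncoding RNA genes 75 (3.56%, 2.85 to 4.45). The window is 300 bases long, from 250 before the start to 50 after it. Base composition differed between those with and without a region. Windows that overlapped a member had a median G and C content of 65.7% and an observed to expected CG ratio of 0.82, other windows in gene interiors had 48.3% and 0.27, and all 34789 windows of the table had 58.7% and 0.58.

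Motifs of IRF, SMAD and other transcription factor families were searched on both strands of those windows. The IRF core, GAAA followed by any 2 bases and GAAA, occurred in 2.06% of 389 member windows, 4.82% of 4209 other interior windows and 3.57% of all windows. The AP-1 motif TGANTCA occurred in 7.46%, 11.4% and 7.69%. The TEAD motif GGAATGT occurred in 1.54%, 5.35% and 3.48%, and its shorter form GGAATG, which the longer one contains, in 10.8%, 17.8% and 14.1%. These 3 families were thus less frequent in the member windows than in the other interior windows, which are also lower in G and C; the part of base composition in this was not tested. The SMAD palindrome GTCTAGAC occurred in 0% of member windows, 0.285% of other interior windows and 0.198% of all windows, and is too rare to compare over 389 windows. The short SMAD motif CAGAC occurred in 45.5%, 48.5% and 45.3%. The G- and C-rich pattern GGGNNNNCC, which resembles an NF-kB site, occurred in 66.6% of member windows, 38.6% of other interior windows and 52.8% of all. The RUNX motif TGTGGTT occurred in 4.37%, 5.56% and 4.28%. A match is a run of letters and not a site, and the sequence of the members away from starts was not used here.

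Within the highest 10% of every list, 10 members had no start of the table used here within 1 kb. That table is not complete, so such a member can still lie at the end of an annotated gene: one in NR6A1, a nuclear receptor, at 95.2, 93.3 and 92.9, held an end of the span of MIR181A2HG. The member with the highest value for the lowest of its 3 percentiles lay in FRMD4A, a scaffold protein of epithelial polarity, at chr10:14185292-14186024. It was 145266 bp from the nearest protein-coding gene end and 2768 bp from the nearest start in the table. It also lay in the span of the noncoding gene LOC124902378, from 14182890 to 14186462, and so close to an end of that gene. The authors' scores of this member, 195.47, 168.48 and 185.91, placed it at the 99.3, 99.4 and 99.5 percentiles. B4GALT5, a galactosyltransferase of glycolipid synthesis, held one at 99.5, 99.1 and 99.1, 19220 bp from the gene end. In LMNA, which encodes the nuclear lamins A and C, the strongest region ranked at 96.2, 97.4 and 97.2 and lay 7827 bp from a start. TNRC6B, a protein of microRNA silencing, held a region at 93.6, 93.7 and 93.4, 98867 bp from a start.

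Some members overlapped small RNA genes. The region in CLASP1, a microtubule-binding protein, covered RNU4ATAC, the gene of a small nuclear RNA of the minor spliceosome, and ranked at 95.8, 97.4 and 97.5; it lay 118407 bp from the nearest start in the table. A region in RPS29 at 95.4, 96.9 and 93.3 overlapped RN7SL1, the RNA of the signal recognition particle, a gene with many close copies in the genome, so its reads are uncertain. A member in BCL7C (93.9, 96.0 and 95.3) held the microRNA gene MIR4519. One in ETS1 (86.5, 70.2 and 73.6) only touched the edge of MIR6090, from 128522390 to its own end at 128522394, and the mature microRNA lies outside it. The BCL7C region lay 192 bp from a start of MIR762HG. The mature product of MIR4519, from the RefSeq microRNA table of GRCh38.p14, is shown because it lies inside a member, with its seed (bases 2 to 8) in capitals.
hsa-miR-4519: cAGCAGUGcgcagggcug

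Most deep regions ranked low to middle. The median percentile of the 1938 was 39.6 in control gRNA (quartiles 21.1 and 60.5), 44.0 in Smad3 gRNA #1 (22.8 and 64.0) and 52.2 in Smad3 gRNA #2 (34.0 and 70.4). In all 3 lists at once, 557 (28.7%) were above the list's median, 41 (2.12%) were in its highest 10% and 186 (9.60%) were under the 25th percentile. The 3 hosts on chromosome 8, where starts were not analysed here, complete the 12 highest-ranking members: ATAD2, a chromatin-bound ATPase (99.0, 98.9 and 99.0), TACC1, a centrosomal protein (98.8, 98.8 and 98.2), and ARHGAP39, a GTPase-activating protein (97.0, 96.3 and 98.6). By the highest of their 3 percentiles, the lowest were in XIRP2, an actin-binding protein of striated muscle (0.305, 0.613 and 0.204), GASK1B (3.07, 3.0 and 2.79) and SHROOM3, which shapes epithelial cells through actin (1.51, 3.72 and 2.25), which tied with a member in TLN2, a talin of focal adhesions (2.24, 3.72 and 0.811). Across the 1938 members, which share their libraries and merged boundaries, the Spearman correlation of the percentiles was 0.77 between control and Smad3 gRNA #1, 0.76 between control and Smad3 gRNA #2, and 0.84 between both guides.

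In rank, deep regions lay near shared regions between genes and under those at gene ends. The 2894 regions outside genes, chosen the same way but over 10 kb from every gene end, had medians of 39.6, 44.0 and 54.1. The 7142 regions within 1 kb of a gene end had medians of 69.2, 62.8 and 68.0, and 781 of them (10.9%) were in the highest 10% of all lists. Before the lists were required to share a region, 3625 narrow regions lay deep inside genes, of which 53.5% (51.8 to 55.1) held a peak in all 3 lists, against 58.1% (56.7 to 59.5) between genes and 79.2% (78.4 to 80.1) at gene ends. Of the deep regions missing from at least 1 list, 190 were in control gRNA alone, 102 in Smad3 gRNA #1 alone, 641 in Smad3 gRNA #2 alone, 64 in control and Smad3 gRNA #1, 308 in control and Smad3 gRNA #2, and 382 in both Smad3 guides; Smad3 gRNA #2 also had the longest list.

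**Figure D1:**
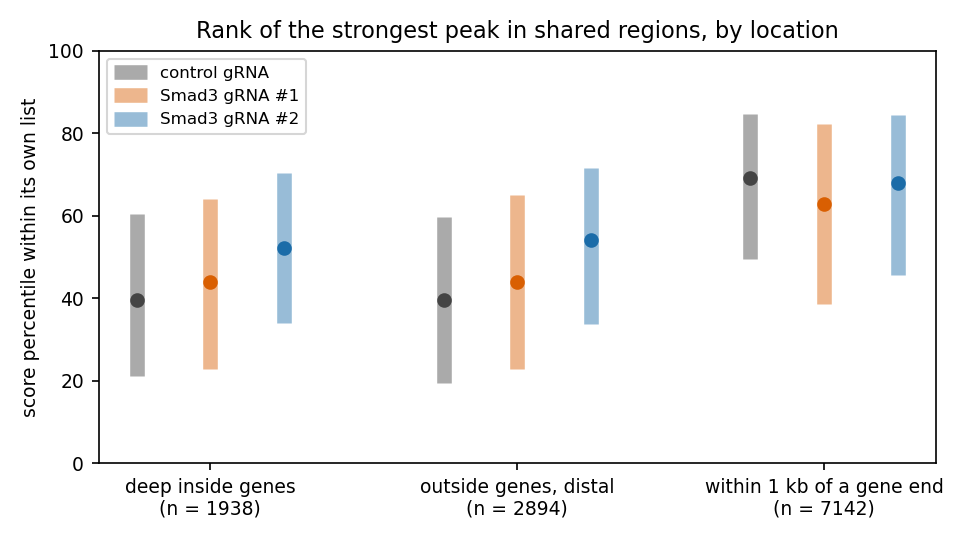
Score percentile within each list (vertical axis) of shared regions under 1000 bp in 3 locations (horizontal axis), for each library. Points are medians and bars run from the lower to the upper quartile over regions; deep regions have medians of 39.6, 44.0 and 52.2, close to those between genes and under those at gene ends.

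Since members are overlapping or touching peaks merged to under 1000 bp, the choice itself keeps their peaks close, and the distances are given as a description. In 1888 members every list had exactly 1 peak. The centres of the strongest control and Smad3 gRNA #1 peaks were a median of 30.0 bp apart, those of control and Smad3 gRNA #2 29.0 bp, and those of both guides 27.0 bp. The regions were a median of 499 bp wide (225 to 998) and lay a median of 45066 bp from a gene end. The narrowest was in FRMD4A and the farthest from an end was in LRP1B, a lipoprotein receptor-like gene, at 759256 bp, with percentiles of 41.3, 18.2 and 57.1. Just inside the distance limit was a region in PSD4 at 10057 bp (21.1, 31.8 and 28.9), and just outside it one in PABIR3 at 9986 bp (10.8, 5.61 and 38.2). Just inside the width limit was one of 998 bp in BNC2 (85.0, 83.9 and 90.6), and just outside it one of 1001 bp in ADAMTSL1 (87.1, 97.2 and 96.5); 81 regions were left out by width alone.

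The members lay in 1213 host genes, which is 11.2% of the 10786 protein-coding genes with any sequence more than 10 kb from every gene end. That interior is called room below; it came to 958 Mb, with 2.02 members per Mb. A single region lay in 818 hosts, 2 regions in 222 and 3 or more in 173, and 24 regions counted for 2 overlapping genes. Hosts were long, with a median span of 150 kb against 59.6 kb for all genes with room. A region was found in 1.52% of genes with under 10 kb of room and in 43.9% (38.2 to 49.8) of the 280 genes with over 500 kb. Per length, the density was 3.28 regions per Mb in the first class and 1.58 in the last.

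NRG1, a ligand of the ERBB receptors, and FRMD4A held 15 regions each, the most of any gene. The NRG1 regions fell into groups at 116 to 182 kb, 590 to 704 kb and 1050 to 1093 kb from the lower-coordinate end of its 1134802 bp span, with 1 region at 902 kb. Their median percentiles were 65.2, 67.4 and 76.2, and the strongest in control was at 87.7, 94.3 and 93.1; in Smad3 gRNA #2 another region was higher, at 82.1, 88.7 and 96.2. The 15 regions of FRMD4A were spread from 45.5 to 639 kb of its 687219 bp span and were weaker, with medians of 36.3, 45.4 and 51.3, apart from the top-ranked one. Measured per length, FRMD4A held 22.9 regions per Mb of room and NRG1 13.7. Of the 15 in FRMD4A none lay within 1 kb of a start of its own and 1 lay at a start of a noncoding gene. When only peaks at or above the list median were used, NRG1 held 10 regions and FRMD4A 5.

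NPAS3, a transcription factor of neural development, held 9, and these lay at 622 to 847 kb of its 869389 bp span, so that none lay nearer than 622 kb to its 5′ end; their medians were 33.1, 40.0 and 46.7. NFIB, a transcription factor with wide roles in development, held 7, and its medians of 69.2, 79.0 and 89.7 were high for deep regions. It lies on chromosome 9, where the medians of all members were 55.8, 58.6 and 64.6. PRKG1, a cGMP-dependent kinase, and MACROD2, which removes ADP-ribose from proteins, held 8 each, MACROD2 at only 3.99 per Mb and with medians of 17.7, 14.8 and 26.4. STK3, the Hippo pathway kinase MST2 (medians 61.7, 76.9 and 77.9), CAST, the calpain inhibitor calpastatin (49.6, 38.7 and 57.1), BCAR3, an adaptor in integrin signalling (34.7, 38.7 and 42.4), STARD13, a GTPase-activating protein (31.5, 37.4 and 48.6), and TENM2, an adhesion receptor (26.4, 38.7 and 40.4), held 7 each. ADAMTSL1, FRMD6, ANK3, CACNA2D3, PHLDB2, NAV1 and LPP held 6 each. Within 1 kb of a start of the host lay 2 regions each in NFIB, PRKG1 and CAST and 1 each in BCAR3 and STARD13. In FRMD6, 2 regions lay near a start of another gene only. The hosts with most regions per Mb of room among those with 3 or more were TMEM236 (105, from 3 regions), LOC124905135 (81.2, from 4), LMNA (80.0, from 3) and BFSP1, a lens filament protein (72.3, from 4).

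**Figure D2:**
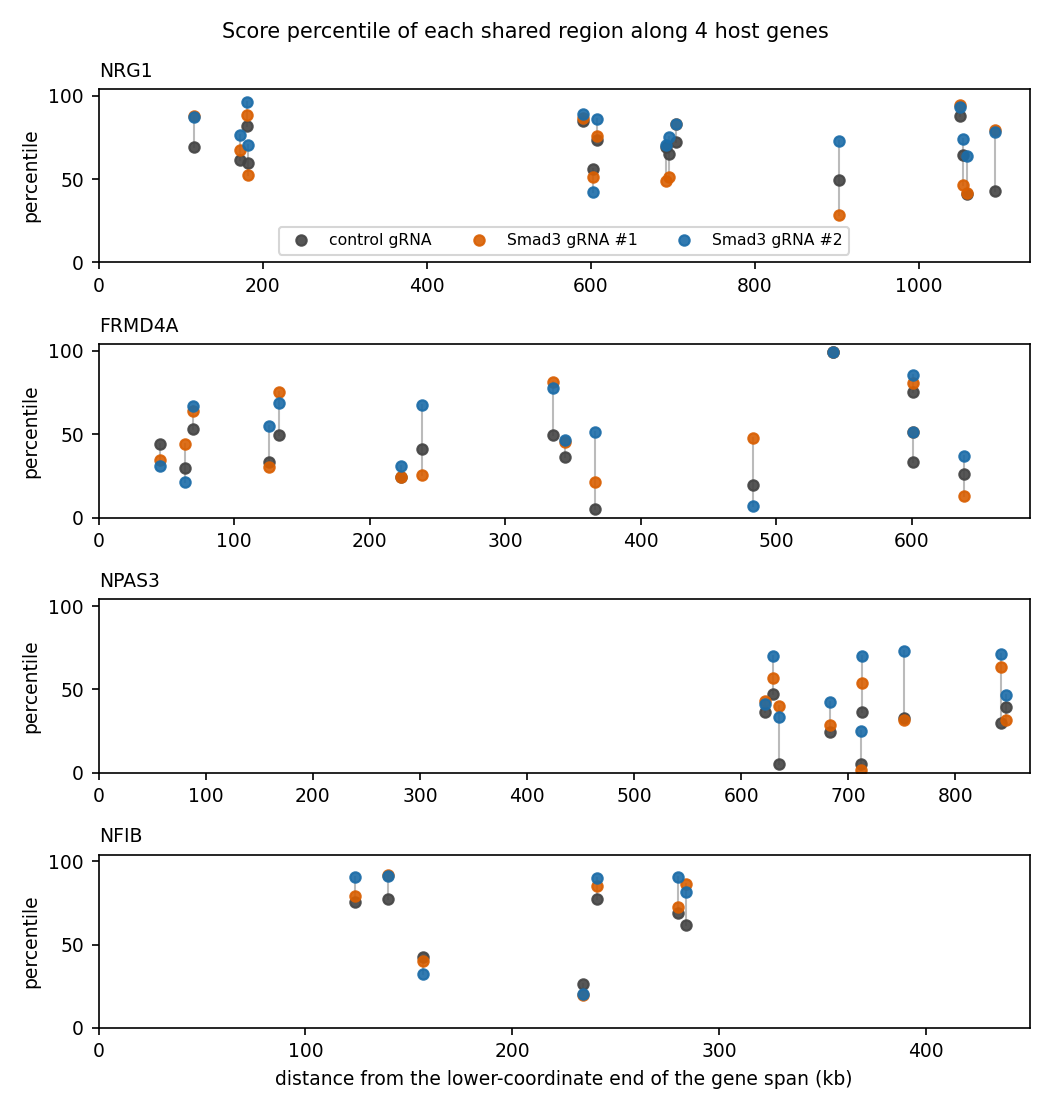
Score percentile in each of the 3 lists (vertical axes) of every deep region along NRG1, FRMD4A, NPAS3 and NFIB, by distance in kb from the lower-coordinate end of the gene span (horizontal axes). Grey lines join the 3 values of 1 region; the FRMD4A region at 542 kb stands highest, at 99.3, 99.4 and 99.5, and the NPAS3 regions lie from 622 to 847 kb.

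Length alone did not make a host. Among the longest genes that held no member were RBFOX1, a splicing factor with 2454 kb of room, PTPRD, DLG2, CSMD1, EYS, PCDH15, ROBO2, PDE4D and DAB1, the last with 1512 kb. Most of these are known for roles in neurons. Among the 41 genes of a synapse and neuron list, all of which had room, 12 held 25 regions, or 0.619 per Mb. The density was 2.02 over all genes and 1.58 in genes with over 500 kb of room, and median room in this list was 876 kb. The share of hosts was 29.3% (17.6 to 44.5), against 11.2% of all genes with room and 43.9% of those with over 500 kb. Those with the most were LSAMP, an adhesion protein of neurons, with 4, and NRXN3, a presynaptic adhesion protein, GRM5, a glutamate receptor, and LRP1B with 3 each.

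Genes of the TGF-beta and BMP pathway, in which SMAD3 acts, held 16 members in 9 of 30 genes with room. The density was 5.95 per Mb against 2.02 over all genes. The share of hosts was 30.0% (16.7 to 47.9), against 11.2% of all genes with room. Median room in this list was 61.3 kb, and 12.3% of genes with 50 to 100 kb of room were hosts. Among the receptors, TGFBR3, the coreceptor betaglycan, held 4, and TGFBR2, which binds the ligand, held 2 at 26.4, 60.5 and 61.1 and at 4.0, 31.8 and 39.2. The TGFBR3 region at 54.7, 42.8 and 39.2 lay 32 bp from a start of the gene, and another at 53.4, 80.4 and 82.2 lay 40994 bp from one. Of the ligands and their binding proteins, TGFB2 held 2 and LTBP1, which tethers latent ligand to the matrix, held 3. SMAD1 held 1 (14.2, 15.5 and 39.2), and PMEPA1, a feedback inhibitor, 1 (75.3, 74.2 and 79.2). SMAD3 itself held none.

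The highest density of any list was that of Hippo, YAP and TEAD genes, with 19 members in 5 of 19 genes, or 8.76 per Mb. WWTR1, which encodes the coactivator TAZ, held 5. One of them ranked at 94.9, 89.5 and 95.6 and lay 58 bp from a start of the antisense gene WWTR1-AS1 and within 1 kb of a start of WWTR1. The other 4, at least 73616 bp from any start, lay between 17.7 and 47.2 in control. VGLL4, a TEAD cofactor, held 3, the highest of them 12 bp from a start (74.7, 63.2 and 74.6). AMOTL1, which holds YAP in the cytoplasm, and VGLL3 held 2 each. The rest were the 7 in STK3, on chromosome 8, where members lay at 3.09 per Mb of room.

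Receptor tyrosine kinases and their ligands held 38 members in 12 of 32 genes, or 5.91 per Mb against 2.02 over all genes, and the 15 of NRG1 were the largest share. Hosts were 37.5% (22.9 to 54.7) of this list against 11.2% of all genes with room, at a median room of 109 kb. PDGFC, a ligand of the PDGF receptors, held 5, NTRK2, the BDNF receptor, 4, and MET, the HGF receptor, 3. The 1 region in ERBB2 was the strongest in control of those named, at 89.5, 82.7 and 85.8, while that in EGFR ranked at 21.1, 36.0 and 28.9. All 23 members of this list off chromosome 8 lay more than 1 kb from every start of the table.

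Extracellular matrix genes held 21 members in 14 of 30 genes, or 5.39 per Mb, the highest share of hosts of any list at 46.7% (30.2 to 63.9). Over all genes with room the share was 11.2%, with 2.02 members per Mb, and median room in this list was 96.1 kb. Of genes with 50 to 100 kb of room, 12.3% were hosts. LOXL2, which crosslinks collagen, held 3, the strongest in control at 69.2, 76.9 and 78.3 and another at 62.6, 90.5 and 87.7, and COL5A2 held 3, while ADAMTS6 and FBN1, the main protein of microfibrils, held 2 each. Actin cytoskeleton and focal adhesion genes held 28 in 10 of 36 (27.8%, 15.8 to 44.0), or 3.77 per Mb, at a median room of 154 kb. They were led by LPP, a focal adhesion protein, with 6, and by SVIL and PALLD, which bind actin, with 5 each. Integrin genes held 1 in 17, in ITGB5, a share of 5.88% (1.05 to 27.0) whose interval spans the 11.2% of all genes with room. Their median room was 66.0 kb, and the interval also spans the 12.3% of genes with 50 to 100 kb.

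Developmental transcription factors held 27 members in 13 of 33 genes, or 4.41 per Mb against 2.02 over all genes. Their share of hosts was 39.4% (24.7 to 56.3) against 11.2% of all genes with room, at a median room of 157 kb. After NFIB, ETS1, TP63, NFIX and HIVEP2 held 3 each. The strongest in TP63, a basal epithelial factor, ranked at 80.2, 89.2 and 88.1 and lay 33133 bp from a start. A region in RUNX1 (68.4, 79.0 and 78.8) lay 96 bp from a start of that gene. One in TCF4 (61.7, 78.1 and 68.0) lay 19 bp from a start of the noncoding gene LOC105372126 and within 1 kb of a start of TCF4.

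Interferon and RNA-sensing genes, the response IRF3 is known for, held 5 members in 3 of 44 genes with room, or 3.51 per Mb against 2.02 over all genes. The share of hosts, 6.82% (2.35 to 18.2), has an interval that spans the 11.2% of all genes with room. These genes are short, with a median room of 22.7 kb in those that had any, against 876 kb for the synapse list. Of all genes with 10 to 50 kb of room, 5.46% were hosts, which the interval also spans. JAK1, the kinase of interferon receptors, held 3, the highest at 66.0, 79.5 and 82.2. ADAR, the RNA editor that limits sensing of the cell's own RNA, held 1 at 49.6, 37.4 and 40.4, 631 bp from a start of ADAR. STAT3 held 1 at 7.81, 12.7 and 9.98. NF-kB genes held 4 in 2 of 26, in IL1RAP, the interleukin receptor accessory chain, and TAB2, an adaptor of the kinase TAK1, with 2 each. That share of hosts, 7.69% (2.14 to 24.1), also has an interval that spans 11.2%, and the density was 3.40 per Mb. Median room in the NF-kB list was 30.6 kb, and the interval also spans the 5.46% at 10 to 50 kb.

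Lists of genes for other cell types were not empty. Lymphocyte genes held 11 members in 4 of 24 genes, or 2.83 per Mb against 2.02 over all genes. The share of hosts, 16.7% (6.68 to 35.9), has an interval that spans the 11.2% of all genes with room. PTPRC, the leukocyte antigen CD45, held 4 of them, the strongest at 78.7, 89.2 and 91.4 and 2130 bp from a start, although it had no peak within 10 kb of either gene end in any list. AFF3 held 4, FYB1 2 and DOCK2 1. Hepatocyte and kidney genes held 1 in 23, in CUBN (63.5, 61.5 and 79.2), or 0.553 per Mb. Their share of hosts, 4.35% (0.772 to 21.0), has an interval that also spans 11.2%. Median room among them was 38.6 kb, and the interval spans the 5.46% at 10 to 50 kb too. The lists hold few genes each and are described by counts alone.

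Along their hosts, members without a start nearby were spread broadly. With the gene span cut into 5 equal parts from the 5′ end, 14.1%, 24.3%, 23.4%, 22.7% and 15.4% of 1253 such members were found, against 17.5%, 21.7%, 21.7%, 21.7% and 17.4% of the room. The 293 at host starts were more often in the second and the third part (30.0% and 33.4%) and less often in the last (5.12%). Neighbours were common: 215 members (11.1%) had another within 2 kb, 472 (24.4%) within 10 kb and 855 (44.1%) within 50 kb.

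The density of members differed between chromosomes. Per Mb of room it was highest on chromosomes 19 (3.84), 9 (3.81), 8 (3.09) and 10 (2.89) and lowest on 21 (0.745), 12 (0.937) and 11 (0.943). The 147 members on chromosome 8, among them those of NRG1, STK3 and LOXL2, also ranked highest, with medians of 65.2, 70.9 and 75.2, and the 132 on chromosome 2 had medians of 21.1, 23.5 and 34.2. Chromosome 8 also had the highest medians for regions at gene ends (89.5, 88.2 and 89.3) and between genes (61.7, 69.6 and 74.6). What part the chromosome has in the rank of a single region was not tested.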

How the data were processed

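The authors deposited 1 peak list per library, called per library, with positions and a score per peak. No source used here gives the scale of this score. Per the submitters' processing notes, the tools were Bowtie2 2.2.2.6 and MACS2 2.1.0 and the build was hg38; their settings, and whether an input library was used, are not given in the sources used here. Fragmented DNA went into PCR-amplified libraries, per the labels.

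Peaks were merged with bedtools 2.31.1 (overlap of at least 1 bp, or touching). Tables were made with Python 3.11.15, pandas 2.3.3, numpy 2.4.6 and scipy 1.17.1, after tests on simulated data. In each region the highest-scoring peak of a list stood for it, and its percentile was the share of the list's peaks with a lower score. Genes and starts came from RefSeq tables of GRCh38.p14, which has hg38 coordinates; all 3079 pairs of overlapping windows on opposite strands were reverse complements where they overlapped. Starts on chromosome 8 were not used here. Positions along hosts used strands from that table.

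The members and gene lists were chosen with earlier results of these data known. Named are the 15 hosts with most regions (ties by summed control percentiles, and here also the 3 tied at 6), the 12 highest and 3 lowest members, up to 4 hosts per list, the 4 densest hosts, members at the limits, and SMAD3; starts, long genes without a region and overlapped small RNAs were named after their values were seen. With 1 library per group no test was made. Alternatives changed the overlap, score threshold, list length, distance, width, genes avoided and lists required. Some marker genes are not reported here.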

Additional observations from a re-analysis of the deposited data

How the results depend on the processing

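Of the alternatives, 2 changed the number of deep regions by over 1.5 times. Using only peaks at or above the median of their list gave 587 regions in 464 hosts, 23 hosts with 3 or more, and a median control percentile of 70.0. A width under 500 bp gave 972 regions in 746 hosts, 47 with 3 or more, and a median of 31.5. Requiring 10 kb from the ends of any gene, noncoding ones included, gave 113 hosts with 3 or more regions and 9 regions in FRMD4A. The median control percentile was 39.6, with a 95% interval of 38.0 to 41.3. That interval is a binomial one from the ordered percentiles of the members, taken as if independent. The median was 42.8 with lists of equal length and 34.7 when Smad3 gRNA #1 was not asked for. It was 33.1 without chromosome 8 and the regions within 1 kb of a start, an alternative chosen after seeing the data. Among the gene lists, integrins had 0 hosts under a reciprocal overlap of 50%, and at 5 kb from gene ends interferon genes had 6 and hepatocyte and kidney genes 2. In 11 other cases each for regions and hosts, the count was within 1.5 times of that reported. No paired analysis was possible because each group holds 1 library. Depth is unknown, so a region missing from a list may lie under that library's threshold.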

Other observations

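Beyond protein-coding hosts, 252 of the 1938 members also overlapped the span of a long noncoding RNA gene, 7 a pseudogene and 6 a transcribed pseudogene. Any overlap was counted, even at an edge. The share of gene interiors that such genes cover was not computed, so these counts cannot be called many or few. Some of the regions at starts of other genes than the host lay at antisense RNAs of the host: EMC3-AS1 in EMC3 (90.6, 89.8 and 90.6 in control gRNA, Smad3 gRNA #1 and Smad3 gRNA #2), EPB41L4A-AS1 in EPB41L4A (92.2, 80.9 and 85.4), PAX8-AS1 in PAX8, an epithelial transcription factor (75.9, 76.9 and 80.3), and BMP7-AS1 in BMP7, a ligand of the BMP receptors (66.8, 71.5 and 78.3). In OSBPL9, an oxysterol-binding protein, 3 members overlapped the transcribed pseudogene CALR4P, with control percentiles of 70.0, 68.4 and 6.43. These genes were chosen after their values were seen.

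Other hosts outside the lists had several regions close together. In B4GALT1, a galactosyltransferase of the Golgi, 4 regions lay in 61.0 kb of room, with medians of 71.3, 80.6 and 80.6. SOD2, the mitochondrial superoxide dismutase and a known target of NF-kB, held 3 in 47.2 kb of room. The strongest of these ranked at 86.5, 61.5 and 80.3, and the other two were at or under 22.8 in every list.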
